A study of Mus musculus with 12 samples.

Results

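A group of 10 genes of interleukin-6 (IL-6) family signalling and of the C/EBP transcription factors was followed through the corneal endothelium of mice that carry the Col8a2 Q455K change. The members are a list of gene symbols, and all 10 were found among the 32761 genes of the count table. They are the ligands Il6 and Lif, the receptor chains Osmr, Il6st and Il6ra, the signal transducer Stat3 and its brake Socs3, the transcription factors Cebpb and Cebpd, and Il1r1, the receptor of interleukin-1.

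Cytokines of the IL-6 family bind a receptor chain of their own, Il6ra for IL-6, Lifr for LIF and Osmr for oncostatin M, and these receptors share the signalling chain Il6st (glycoprotein gp130). The paired receptor activates JAK kinases, which phosphorylate STAT3, and STAT3 in the nucleus drives target genes that include Socs3, whose product binds the receptor and its kinases and ends the signal. C/EBP-beta and C/EBP-delta are basic leucine zipper factors, first described as activators of the IL6 gene in human cells and of acute phase genes in the liver, and both can be induced by IL-6 and IL-1. The corneal endothelium is the single layer of pump cells on the inner face of the cornea, and LIF has been used to keep human corneal endothelial cells growing in culture.

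The study has 4 groups of 3 biological replicates, 12 libraries in all. Early mutants were Col8a2 Q455K homozygous mice of at most 2 months and early wild types were mice of the same age limit, while late mutants and late wild types were at least 8 months old. The study used the mutant as a model of Fuchs endothelial corneal dystrophy, and the early libraries are batch 1 and the late libraries batch 2, so stage and batch cannot be told apart. The names of the authors' columns call the wild types c57. No source used here gives the sex of the mice or says whether tissue of several mice was pooled.

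The deepest library, early mutant replicate 1, held 39431676 counts and the shallowest, early wild-type replicate 2, held 19722598. At these depths 3 counts are 0.0773 to 0.132 CPM, the count of a gene scaled to a fixed library size. CPM values are scaled by the TMM method throughout. All 10 corneal endothelial markers had reads in every group, with summed levels of 57400 to 70000 CPM in early mutants and 58500 to 112000 CPM in early wild types, and of 41100 to 71200 CPM in late mutants and 80200 to 101000 CPM in late wild types. Among late wild types, the variance between replicate 1 and the others was 235 and 237 times what sampling gives, against 59.1 times between replicates 2 and 3. It and the shallowest library were left out in turn and together, and results that moved are given with and without them.

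Both C/EBP factors were higher in mutants at each stage, Socs3 passed the test late and over both stages, Osmr passed late, and Stat3 passed when both stages were averaged. The ligands gave few reads, Il6ra and Il1r1 did not pass in any comparison, and no member passed in the lower direction. Each genotype effect was tested with edgeR's quasi-likelihood test in 1 fit of the 12 libraries, with Benjamini-Hochberg adjustment over the 17965 genes tested and a threshold of 0.05. Of the 10 members 9 could be tested, and Il6 had too few reads. Early, 2 members passed as higher, Cebpb and Cebpd, where 0.557% of all genes tested did so and 0.59% passed in either direction. Late, 4 passed as higher, Cebpb, Cebpd, Socs3 and Osmr, where 2.77% of all genes did and 5.47% passed in either direction. Averaged over the stages, 5 passed as higher, these 4 and Stat3, where 4.04% of all genes did and 6.85% passed in either direction. The mutant libraries lay wholly above the wild-type libraries for 5 members early, against 10.1% of all genes tested, and for 7 members late, against 14.9%. The median log2 fold change of the 9 tested members was 0.71 early and 2.19 late, and that of all genes was -0.11 early and 0 late. Since the members were chosen with results of these data known, these counts describe them and are no test of the set. The summed levels of macrophage markers and of immediate early genes were also higher in the mutant libraries, with the values given at the end, and in bulk tissue more cells of a type and more RNA per cell cannot be told apart.

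**Figure D1:**
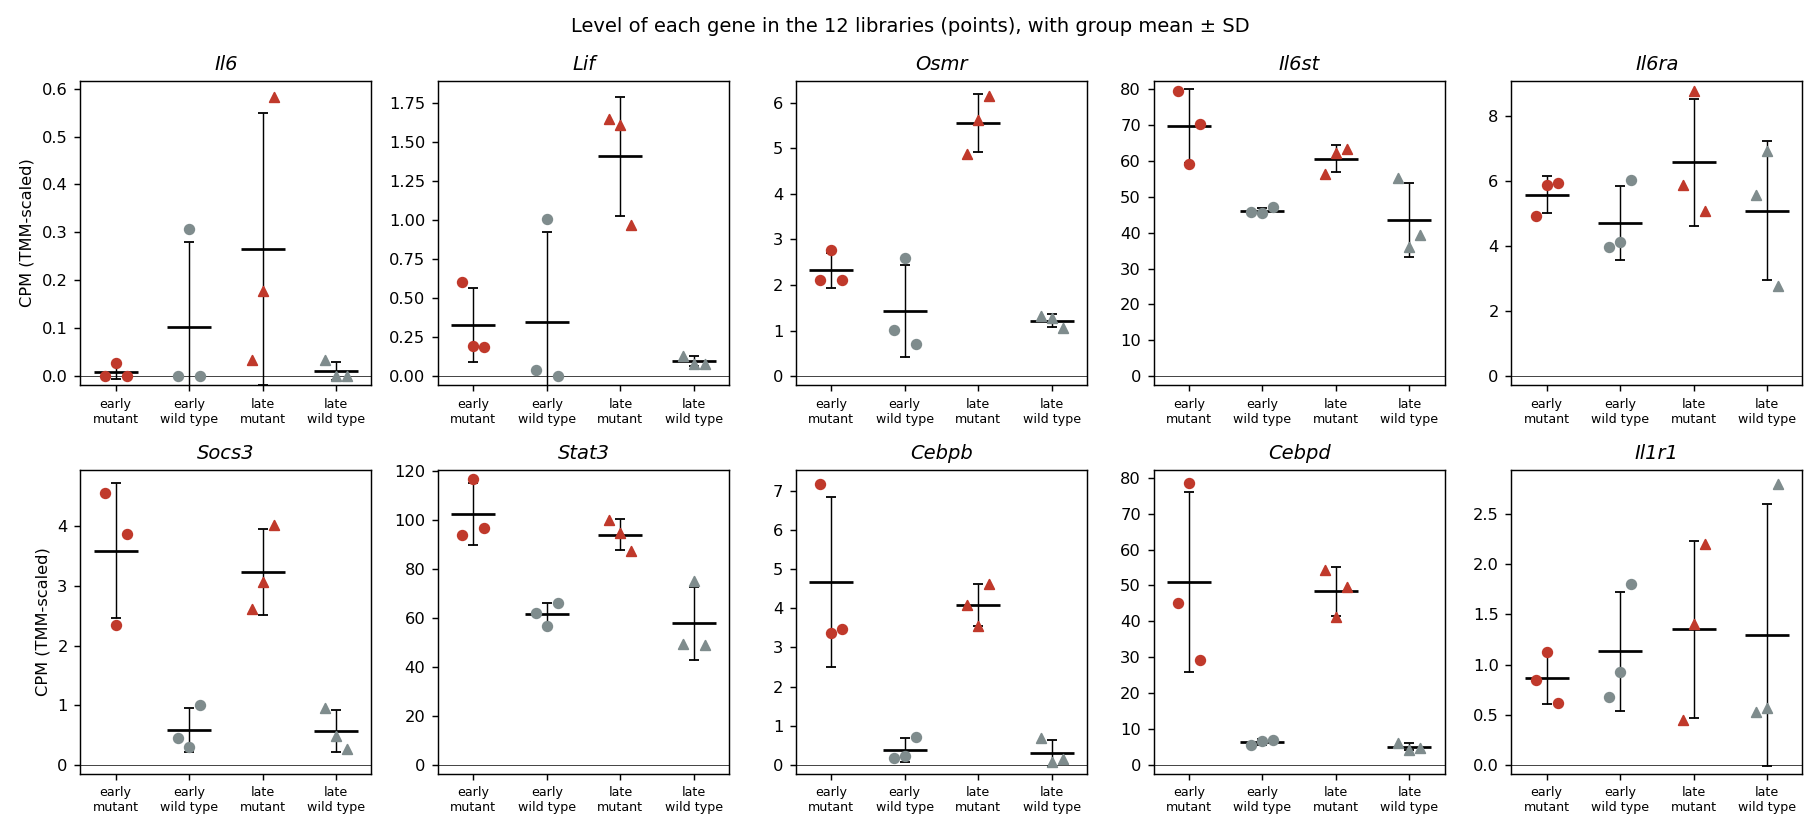
Level of each of the 10 genes in the 12 libraries, as TMM-scaled CPM on linear axes that differ between genes, with 0 marked by a line; circles are early and triangles late libraries, red mutant and grey wild type, with the group mean as a bar and the SD as whiskers (n = 3 each; whiskers that run far below 0 leave the panel). The mutant libraries of Cebpb, Cebpd, Socs3, Stat3 and Il6st lie above the wild-type libraries at each stage, and those of Osmr and Lif do so late.

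Of the ligands, Il6, the founding cytokine of the family, was almost unread. Il6 had 0, 1 and 0 counts in early mutants and 0, 7 and 0 counts in early wild types. Late, Il6 had 1, 6 and 18 counts in mutants and 1, 0 and 0 counts in wild types. Only 1 of the 12 libraries, late mutant replicate 3, held at least 10 counts of Il6, so it was not tested and no fold is given.

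Lif, leukaemia inhibitory factor, had 22, 7 and 6 counts in early mutants and 1, 23 and 0 counts in early wild types, so the early groups overlapped. Late, Lif had 48, 54 and 30 counts in mutants against 4, 2 and 2 counts in wild types, and every mutant library lay above every wild-type one. In CPM this was 1.41 ± 0.38 in late mutants and 0.0964 ± 0.0301 in late wild types (SD, n = 3 each). The late log2 fold change of 3.8 ± 1.35 (SE), 14-fold, did not pass (edgeR adjusted p = 0.089). The gene passed the filter on low counts with at least 10 counts in 5 libraries, 3 of which were the late mutants. The late call depended on the method and on 1 library: in the authors' deposited table Lif was 13.8-fold higher with q = 0.011, DESeq2's Wald test gave an adjusted p of 0.021, and edgeR gave 0.046 without early wild-type replicate 2.

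Early wild-type replicate 2 held 23 of the 24 Lif counts of its group and all 7 of the Il6 counts, and it was also the highest early wild type for Osmr, at 2.59 CPM against 1.01 and 0.696 CPM. Without it the early log2 fold change of Lif was 4.04 in place of -0.06 (adjusted p = 0.45 and 0.99), and the averaged one 3.96 in place of 1.87 (adjusted p = 0.014 and 0.2). Oncostatin M (Osm), the ligand of Osmr, followed the same pattern in this library, with 1, 0 and 1 counts in early mutants and 0, 10 and 0 counts in early wild types. Late, Osm had 1, 9 and 14 counts in mutants and 1, 9 and 0 counts in wild types, and it was not tested. Il11, another ligand of the family, was read in every library, at 0.893 ± 0.693 CPM in early mutants and 0.769 ± 0.4 CPM in early wild types, and at 1.29 ± 0.369 CPM in late mutants and 0.651 ± 0.369 CPM in late wild types (adjusted p = 0.92 early and 0.42 late).

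Among the receptor chains Osmr, which pairs with Il6st in the mouse oncostatin M receptor and is also part of the IL-31 receptor, had the widest late difference. Osmr was at 2.1, 2.76 and 2.1 CPM in early mutants and 1.01, 2.59 and 0.696 CPM in early wild types, and these groups overlapped. Late, it was at 4.88, 5.62 and 6.15 CPM in mutants against 1.31, 1.28 and 1.05 CPM in wild types, with no overlap. The late mean was 4.56-fold higher in mutants (log2 2.19 ± 0.5, adjusted p = 0.018), while the early value of 0.71 ± 0.48 did not pass (adjusted p = 0.64). The change of the genotype effect between the stages, tested as an interaction, was 1.48 ± 0.68 on the log2 scale and did not pass (edgeR adjusted p = 0.43). Without early wild-type replicate 2 the early value was 1.47 (adjusted p = 0.44) and the interaction 0.79 (adjusted p = 0.82), and with 1 library left out the early value ran from 0.39 to 1.47 and the interaction from 0.79 to 1.81. Late mutants held 2.39-fold more Osmr than early mutants (log2 1.26 ± 0.48), which also did not pass (adjusted p = 0.76). The late call was lost without late mutant replicate 3 (adjusted p = 0.065) and without late wild-type replicate 2 or 3 (adjusted p = 0.056 and 0.061), at log2 fold changes of 2.1 to 2.23, and the averaged call (2.73-fold, adjusted p = 0.016) held in all of the alternatives in which Osmr was tested.

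Il6st, the chain shared by the receptors of IL-6, LIF and oncostatin M, was at 79.5, 59 and 70.4 CPM in early mutants against 45.8, 45.4 and 47 CPM in early wild types. Late, it was at 56.4, 62.3 and 63.2 CPM in mutants against 55.3, 36.1 and 39.3 CPM in wild types. Mutants lay above wild types at each stage, late by a narrow gap to late wild-type replicate 1. Neither difference passed, at 1.51-fold early (adjusted p = 0.51) and 1.39-fold late (adjusted p = 0.21), nor did the average of 1.45-fold (log2 0.54 ± 0.17, adjusted p = 0.069). Without late wild-type replicate 1 the late log2 fold change was 0.81 (adjusted p = 0.024) in place of 0.48, and the averaged one 0.73 (adjusted p = 0.0049). Leaving out that library also raised the genes called in all from 983 to 3909 late and from 1230 to 3004 averaged. DESeq2 and limma-voom also called the average (adjusted p = 0.019 and 0.015).

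Il6ra, the IL-6 binding chain, ran from 4.92 to 5.94 CPM in early mutants and from 3.97 to 6.03 CPM in early wild types, and from 5.08 to 8.78 CPM in late mutants and from 2.76 to 6.94 CPM in late wild types. The groups overlapped at each stage, at 1.18-fold early and 1.29-fold late (adjusted p = 0.82 and 0.54). Lifr, the binding chain of LIF, was at 5.02 ± 0.342 CPM in early mutants and 4.97 ± 0.58 CPM in early wild types (adjusted p = 0.99), and at 8.3 ± 1.32 CPM in late mutants and 4.65 ± 2.02 CPM in late wild types (log2 0.83 ± 0.36, adjusted p = 0.14). Il11ra1, the binding chain of IL-11, was at 485 ± 48.8 CPM in early mutants and 464 ± 134 CPM in early wild types, and at 468 ± 44.9 CPM in late mutants and 367 ± 138 CPM in late wild types, and did not pass (adjusted p = 0.94 early and 0.43 late).

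Stat3, the transcription factor through which the family acts, was at 93.9, 117 and 96.7 CPM in early mutants against 62.1, 56.7 and 66.1 CPM in early wild types. Late, it was at 100, 94.9 and 87.3 CPM in mutants against 49.5, 75.1 and 49 CPM in wild types. The genotypes did not overlap at either stage, and the sizes were alike, 1.66-fold early and 1.63-fold late. Neither stage alone passed (adjusted p = 0.35 and 0.087), and the average did, at 1.65-fold (log2 0.72 ± 0.17, adjusted p = 0.018). The late value passed without late wild-type replicate 1 (log2 0.73, adjusted p = 0.043), where 3909 genes in all passed late in place of 983. The authors' deposited table gave q = 0.035 early and q = 0.2 late. These are amounts of mRNA, and the phosphorylation that activates STAT3 is not measured by them. In the GENCODE annotation of the older build an exon of Stat3 overlaps one of Stat5a on the other strand, and no source used here says whether counting used the strand, so reads there cannot be told apart; Stat5a was at 7.62 ± 0.717 CPM in early mutants and 10.7 ± 3.69 CPM in early wild types, and at 7.1 ± 0.682 CPM in late mutants and 13 ± 6.57 CPM in late wild types, with neither difference past the threshold (adjusted p = 0.65 and 0.13).

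Socs3, the feedback inhibitor that STAT3 induces, was at 4.56, 2.35 and 3.87 CPM in early mutants against 0.449, 0.308 and 1.01 CPM in early wild types. Late, it was at 2.61, 3.06 and 4.02 CPM in mutants against 0.951, 0.482 and 0.272 CPM in wild types. All 6 mutant libraries lay above all 6 wild-type libraries. Socs3 was 5.97-fold higher early (log2 2.58 ± 0.6), which missed the threshold (adjusted p = 0.059), and 5.61-fold higher late (log2 2.49 ± 0.6, adjusted p = 0.024). Averaged over the stages it was 5.79-fold higher (log2 2.53 ± 0.42, adjusted p = 0.0011). Early it passed in 6 alternatives, the authors' deposited table among them (5.79-fold, q = 0.0041), and late it was lost in 5, at adjusted p of 0.054 to 0.087. Over all alternatives the log2 fold change ran from 2.29 to 3.24 early, the highest without early wild-type replicate 3, and from 2.16 to 3.22 late, the highest without late wild-type replicate 1. Socs1, a related inhibitor that acts more on interferon signalling, was at 4.39 ± 1.06 CPM in early mutants and 2.97 ± 0.662 CPM in early wild types, and at 4.11 ± 0.529 CPM in late mutants and 2.71 ± 0.983 CPM in late wild types (adjusted p = 0.65 early and 0.33 late).

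Cebpb, the gene of C/EBP-beta, was at 7.18, 3.36 and 3.46 CPM in early mutants against 0.187, 0.22 and 0.722 CPM in early wild types. In reads this was 263, 123 and 112 counts in early mutants against 5, 5 and 28 counts in early wild types. Late, it was at 4.09, 3.54 and 4.63 CPM in mutants against 0.688, 0.0803 and 0.155 CPM in wild types, or 119, 119 and 143 counts against 21, 2 and 4 counts. Every mutant library held several times the highest wild-type level. Cebpb rose 11.9-fold early (log2 3.57 ± 0.69, adjusted p = 0.016) and 12.8-fold late (log2 3.68 ± 0.71, adjusted p = 0.0077). The late call held in all 20 alternatives in which it was tested, at log2 fold changes of 3.24 to 5.19, the highest without late wild-type replicate 1. The early call was lost without early mutant replicate 1, the highest library (log2 3.14, adjusted p = 0.13), and without early wild-type replicate 1 or 2 (log2 3.27 and 3.32, adjusted p = 0.092 and 0.09). Dropping early wild-type replicate 3 gave a larger value (log2 4.51, adjusted p = 0.011). An exon of Cebpb overlaps Peds1 on the other strand, which was at 57.3 ± 3.5 CPM in early mutants and 45.7 ± 14.9 CPM in early wild types, and at 42.3 ± 30.4 CPM in late mutants and 56.1 ± 36.3 CPM in late wild types (adjusted p = 0.83 and 0.66).

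Cebpd, the gene of C/EBP-delta, was raised at each stage. It was at 45.2, 78.5 and 29.2 CPM in early mutants against 5.46, 6.77 and 7.04 CPM in early wild types. Late, it was at 54.4, 41.1 and 49.5 CPM in mutants against 6.23, 4.17 and 4.82 CPM in wild types. The lowest mutant library, early replicate 3, stood well above the highest wild-type library, and early mutants spread more widely than late ones. Cebpd rose 7.93-fold early (log2 2.99 ± 0.34, adjusted p = 0.00013) and 9.51-fold late (log2 3.25 ± 0.34, adjusted p = 5.3e-05), and passed in all 21 alternatives at each stage, at log2 fold changes of 2.58 to 3.28 early and 3.13 to 3.55 late. Averaged over the stages, Cebpd was 8.68-fold higher (adjusted p = 3.1e-07) and Cebpb 12.3-fold higher (adjusted p = 0.00017). Spidr, a gene whose exon overlaps Cebpd on the other strand, was at 3.69 ± 1.28 CPM in early mutants and 2.42 ± 0.637 CPM in early wild types, and at 3.97 ± 2.15 CPM in late mutants and 2.32 ± 0.0535 CPM in late wild types (adjusted p = 0.66 and 0.27).

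Il1r1, the signalling receptor of IL-1, ran from 0.619 to 1.12 CPM in early mutants and from 0.674 to 1.8 CPM in early wild types, and from 0.447 to 2.2 CPM in late mutants and from 0.525 to 2.8 CPM in late wild types. Its groups overlapped at each stage (log2 -0.4 ± 0.77 early and 0.06 ± 0.77 late, adjusted p = 0.85 and 0.97), and the sign of each value turned when single libraries were left out. Il1b, an IL-1 ligand, had 5, 1 and 6 counts in early mutants and 0, 14 and 3 counts in early wild types, and 13, 28 and 48 counts in late mutants against 5, 1 and 0 counts in late wild types. The late groups of Il1b did not overlap, and its log2 fold change of 3.68 ± 1.51 did not pass (adjusted p = 0.13). Il1rap, the partner chain of the receptor, and Il1rn, the receptor antagonist, did not pass at either stage (adjusted p from 0.18 to 0.79).

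**Figure D2:**
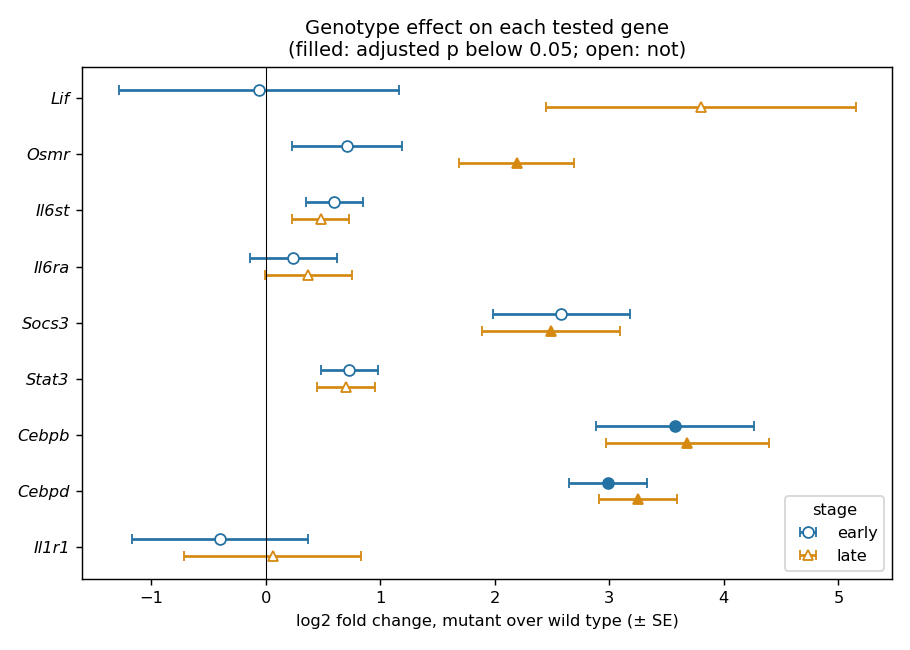
Log2 fold change of mutant over wild type for the 9 tested genes, with its standard error, early as circles and late as triangles; filled symbols passed an adjusted p of 0.05. Cebpb and Cebpd are filled at each stage, Socs3 and Osmr only late, and the early and late symbols of Socs3, Stat3, Cebpb and Cebpd lie within their errors of each other.

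No member's genotype effect passed as different between the stages, where 1 of all the genes tested, or 0.00557%, did in either direction. At an unadjusted p below 0.05 there were 2 members in edgeR, Lif and Osmr, and 2 in DESeq2 and 0 in limma-voom, with 0 after adjustment in each tool. The interaction of Lif was 3.86 ± 1.78 on the log2 scale with all libraries and -0.17 without early wild-type replicate 2. Between late and early libraries of the same genotype no member passed in edgeR, in mutants (1 at an unadjusted p below 0.05, 0 in DESeq2 and 1 in limma-voom after adjustment) or in wild types (0 unadjusted, and 0 in DESeq2 and limma-voom), and of all genes 0% did.

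Levels of different genes were compared in FPKM as the authors deposited it, which divides by gene length. Stat3 and Cebpd stood highest in mutants, at 21.2 ± 3.46 and 21.7 ± 11.6 FPKM early and 21.9 ± 2.7 and 22.7 ± 0.672 FPKM late, and the ranges of the pair overlapped at each stage. In wild types Stat3 was highest at 13.9 ± 2.4 FPKM early and 11.9 ± 2.12 FPKM late, Il6st followed at 8.35 ± 1.42 and 7.47 ± 2.73 FPKM, and Cebpd came after them at 2.99 ± 0.832 and 2.2 ± 0.735 FPKM. The ranges of Stat3 and Il6st overlapped in late wild types and not in early wild types. Il6st in mutants was at 11.5 ± 1.34 FPKM early and 11.4 ± 1.8 FPKM late.

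Lower in the order, Cebpb was at 2.9 ± 1.29 FPKM in early mutants and 0.267 ± 0.231 FPKM in early wild types, and at 2.87 ± 0.279 FPKM in late mutants and 0.212 ± 0.247 FPKM in late wild types. In mutants it lay above Il6ra (1.57 ± 0.195 FPKM early, 2.13 ± 0.878 FPKM late), with overlapping ranges late, and in wild types below Il6ra (1.46 ± 0.508 FPKM early, 1.45 ± 0.597 FPKM late). In wild types Osmr, Cebpb, Socs3 and Il1r1 could not be ordered, as the ranges of neighbours overlapped at each stage, with means of 0.198 to 0.283 FPKM early and 0.199 to 0.216 FPKM late. In late mutants Socs3 (1.27 ± 0.308 FPKM) and Osmr (1.1 ± 0.201 FPKM) overlapped. In early mutants Socs3 (1.24 ± 0.355 FPKM) stood above Osmr (0.408 ± 0.0834 FPKM). Lif, Il6 and Il1r1 were lowest in every group of mutants, at 0.24 to 0.272 FPKM late.

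The FPKM ratio of Stat3 to its inhibitor Socs3 was 12.2, 14.8 and 29.5 (lowest, median and highest) in early mutants against 39, 82 and 110 in early wild types. Late, it was 12.9, 18.4 and 22.8 in mutants against 30.9, 92.6 and 107 in wild types, so the genotypes did not overlap at either stage. The ratio of Il6st to Osmr was 9.75 to 11 in late mutants against 26.7 to 40 in late wild types, and overlapped early, at 20.3 to 35.9 in mutants and 16.6 to 64.2 in wild types. The ratio of Cebpd to Cebpb was 4.23 to 15.7 in early mutants and 6.55 to 20.7 in early wild types, and 7.18 to 8.93 in late mutants and 6.08 to 34.9 in late wild types, with overlap at each stage.

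**Figure D3:**
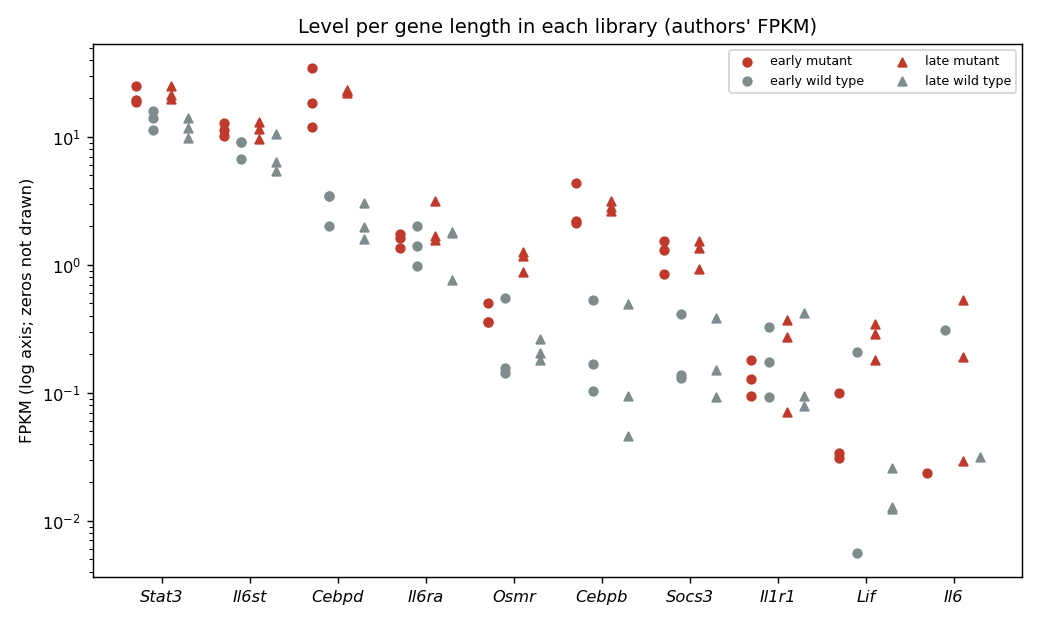
Authors' FPKM of the 10 genes in each library on a log axis, ordered by the mean of late wild types; circles are early and triangles late, red mutant and grey wild type, and libraries listed at 0 are not drawn. Stat3 and Il6st lead in wild types, and in mutants Cebpd stands beside Stat3, at 21.7 and 21.2 FPKM early and 22.7 and 21.9 FPKM late.

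Promoter sequence is shown for Socs3 and Cebpb, which were raised in mutants, and for Il6, which was almost unread, to set the bases before their starts beside these values. The RefSeq promoter table of build GRCm38.p6 matched 9 of the 10 members, and holds no entry for Cebpd. The 250 bases before the annotated start are given in the direction of transcription, with capitals for motif matches on either strand. The counts were made on GRCm39, so these coordinates are of the older build. In GENCODE's annotation of that build a transcript of Cebpb and one of Il6 begin at the RefSeq start. None of the 3 Socs3 transcripts does: the coding one begins 180 bases downstream, and 77 of the bases shown lie in an exon of a non-coding one. The Osmr window is not shown, as all of it lies in an exon of Osmr in GENCODE.
Socs3 (chr11:117969367-117969616, minus strand): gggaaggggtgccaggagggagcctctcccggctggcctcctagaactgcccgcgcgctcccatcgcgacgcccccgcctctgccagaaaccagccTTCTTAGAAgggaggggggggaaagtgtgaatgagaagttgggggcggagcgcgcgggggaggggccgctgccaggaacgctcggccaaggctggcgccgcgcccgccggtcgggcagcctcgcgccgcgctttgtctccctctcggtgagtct
Cebpb (chr2:167688665-167688914, plus strand): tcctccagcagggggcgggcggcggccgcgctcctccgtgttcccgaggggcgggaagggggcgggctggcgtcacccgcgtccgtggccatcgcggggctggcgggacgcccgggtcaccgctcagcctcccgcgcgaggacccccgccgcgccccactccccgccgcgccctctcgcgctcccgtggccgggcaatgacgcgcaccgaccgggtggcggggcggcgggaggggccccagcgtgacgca
Il6 (chr5:30012864-30013113, plus strand): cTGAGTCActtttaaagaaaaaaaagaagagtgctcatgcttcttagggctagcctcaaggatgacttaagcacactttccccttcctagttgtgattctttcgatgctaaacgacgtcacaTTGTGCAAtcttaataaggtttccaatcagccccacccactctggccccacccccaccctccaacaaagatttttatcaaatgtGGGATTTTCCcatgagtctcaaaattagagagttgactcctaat

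The motifs searched were a STAT motif (TTCNNNGAA), a C/EBP motif (TTGCNNAA, or TTNNGCAA on the other strand), a cyclic AMP response element (TGACGTCA), an AP-1 motif (TGANTCA) and the NF-kB motif. No match overlapped another, and the capitals mark every match. The Socs3 promoter held 1 match, the STAT motif TTCTTAGAA at 154 to 146 bases before the RefSeq start, and 7.02% of the 32851 promoters in the table held a STAT match in the same window. The Il6 promoter held 3 matches, the AP-1 motif TGAGTCA at 249 to 243 bases, the C/EBP motif TTGTGCAA at 128 to 121 bases and the NF-kB motif GGGATTTTCC at 44 to 35 bases before the start, against shares of 6.75%, 9.56% and 7.25% of all promoters. The Cebpb promoter, of which 81.6% of bases were G or C, held no match to these letters in this window. A cyclic AMP response element was in 1.55% of all promoters and in no member's. A match describes the letters and not a bound site.

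Around the members, 8 of 14 other ligands and receptors of the IL-6 family had enough reads to test. None passed early (0 also in DESeq2 and limma-voom; 0 at an unadjusted p below 0.05 in edgeR, and 1 in each of the other tools), with a median log2 fold change of 0.14. Late, 1 was lower, Ctf1, the gene of cardiotrophin-1, where 2.71% of all genes tested were. Ctf1 was at 24.4 ± 5.64 CPM in mutants against 67.9 ± 35.7 CPM in wild types (log2 -1.48 ± 0.39, edgeR adjusted p = 0.033). The late median of the list was -0.12. The late wild types of Ctf1 were at 27, 84 and 92.7 CPM, of which replicate 1 lay within the mutant range, and the call was lost in 8 alternatives, the lowest size being -1.18 without late wild-type replicate 3.

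The list of JAK-STAT relay and brakes had 23 genes, all tested, and none passed at either stage in edgeR. Early, 2 had an unadjusted p below 0.05, and none passed in DESeq2 or limma-voom, with a median log2 fold change of 0.09. Late, 9 had an unadjusted p below 0.05 and 2 passed in DESeq2 and 2 in limma-voom, with a median of 0.18. Jak1, the main kinase on Il6st, was at 189 ± 39.2 CPM in early mutants and 159 ± 29.6 CPM in early wild types (adjusted p = 0.72), and at 133 ± 20 CPM in late mutants and 215 ± 23.2 CPM in late wild types. Its late groups did not overlap, at 0.621-fold (log2 -0.69 ± 0.25, adjusted p = 0.096), and the interaction did not pass (adjusted p = 0.31). Jak2, another kinase of these receptors, was at 6.34 ± 2.03 CPM in late mutants and 8 ± 1.69 CPM in late wild types (adjusted p = 0.52).

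Of 30 genes known as STAT3 targets or acute phase genes 26 were tested, and 4 rose early and 9 late, with none lower. The median log2 fold change was 0.89 early and 1.97 late, and 21 and 25 of the 26 values lay above 0. Among all genes tested, 0.557% rose early and 2.77% late. This list, like the others around the members, was chosen with earlier results of these data known, so these counts are no test of it. Timp1, an inhibitor of metalloproteinases, was at 149, 93.3 and 79 CPM in early mutants against 20.6, 12 and 18.5 CPM in early wild types, and at 109, 87.8 and 102 CPM in late mutants against 10.1, 19.1 and 18.8 CPM in late wild types. It rose 6.29-fold early and 6.25-fold late (adjusted p = 0.00023 and 0.00027), with no overlap. Ccnd1, the cyclin that drives entry into the cell cycle, rose 10.9-fold early (11.6 ± 8.66 CPM in mutants, 1.04 ± 0.677 CPM in wild types, adjusted p = 0.003) and 18.7-fold late (11.5 ± 2.46 CPM in mutants, 0.617 ± 0.188 CPM in wild types, adjusted p = 0.00076), and the early call was lost in limma-voom (adjusted p = 0.14). Its early log2 fold change of 3.45 was 2.71 when early mutant replicate 2 was dropped (adjusted p = 0.018). Dropping early wild-type replicate 3 gave 4.09 (adjusted p = 0.0026).

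Steap4, a metalloreductase, rose 3.13-fold early and 4.53-fold late (adjusted p = 0.03 and 0.0025), and Junb, an AP-1 subunit, was 3.13-fold higher early without passing (adjusted p = 0.073) and rose 5.04-fold late (adjusted p = 0.0041). Fos, the other AP-1 subunit of the list, rose 4.64-fold early (16.8 ± 7.8 CPM in mutants, 3.64 ± 1.44 CPM in wild types, adjusted p = 0.015). The other late calls were Fos, Myc, Cd14, Saa3 and Ccl2. The early calls of Steap4 and Fos were lost in 6 and 5 alternatives. The number of genes higher ran from 2 to 9 early and from 4 to 18 late over the alternatives, and 2 were lower early without the filter on low counts. The acute phase genes Saa1, Saa2, Hp and Hpx, named after their values were seen, had early log2 fold changes of -3.16, -3.76, -3.63 and -2.44 that did not pass (edgeR adjusted p from 0.46 to 0.57). Late, their values were on the other side of 0, at 4.17, 5.48, 1.45 and 2.47, and did not pass (edgeR adjusted p from 0.053 to 0.54). In early wild types Saa1 ran from 0 to 6.99 CPM and Saa2 from 0.103 to 7.11 CPM, and the early genotypes overlapped for both. Hpx, which binds heme, was at 0.164 ± 0.0732 CPM in early mutants and 0.904 ± 0.456 CPM in early wild types. Junb and Fos also belong to the immediate early genes, and the acute phase genes Orm1, Fga, Fgb and Fgg, typical of liver, had too few reads to test.

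Of 10 other genes of the C/EBP family and its partners 8 were tested. Early, none passed (3 at an unadjusted p below 0.05, 0 in DESeq2 and limma-voom after adjustment), and all 8 log2 fold changes lay above 0 with a median of 0.58. Late, 3 rose and 1 fell, where 2.77% of all genes tested rose and 2.71% fell. Atf4, the translationally controlled stress factor that pairs with C/EBP proteins, rose 2.42-fold (88.3 ± 6.78 CPM in late mutants, 36.5 ± 8.09 CPM in late wild types, adjusted p = 0.013). Nfil3, a bZIP repressor, rose 3.6-fold (7.77 ± 1.74 CPM in late mutants, 2.16 ± 0.747 CPM in late wild types, adjusted p = 0.04), and Ddit3, the C/EBP relative CHOP, rose 1.98-fold (95.7 ± 5.94 CPM in late mutants, 48.4 ± 9.56 CPM in late wild types, adjusted p = 0.036). Cebpg, a C/EBP that lacks an activation domain of its own, fell to 15.6 ± 4.16 CPM in late mutants, against 35 ± 11.4 CPM in late wild types (log2 -1.16 ± 0.31, adjusted p = 0.034). Early, Cebpg was at 22.3 ± 5.59 CPM in mutants and 18.1 ± 0.589 CPM in wild types (adjusted p = 0.72), and the interaction did not pass (log2 -1.46 ± 0.43, adjusted p = 0.18). The late calls of Cebpg, Ddit3 and Nfil3 were lost in 10, 8 and 6 alternatives, and that of Atf4 in 3. Cebpa had 7, 8 and 1 counts in early mutants and 1, 11 and 2 counts in early wild types, and 6, 22 and 8 counts in late mutants and 3, 9 and 0 counts in late wild types, and was not tested.

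In the IL-1 axis and its NF-kB feedback 22 of 23 genes were tested. None passed early (4 at an unadjusted p below 0.05, 0 in DESeq2 and limma-voom after adjustment), with a median log2 fold change of 0.19. Late 3 rose, where 2.77% of all genes tested did. The late median was 0.7, the same with the 1 gene that had no reads in a group set at its bound. Myd88, the adaptor of the IL-1 receptor, rose 2.14-fold (38.5 ± 6.49 CPM in late mutants, 18 ± 3.78 CPM in late wild types, adjusted p = 0.029), and Nfkb2, a subunit of NF-kB, rose 3.2-fold (adjusted p = 0.044). Early, Nfkb2 was on the other side of 0 without passing (log2 -1.14 ± 0.47, edgeR adjusted p = 0.51). Its interaction of 2.82 ± 0.67 did not pass in edgeR (adjusted p = 0.12). For the list as a whole 0 interactions passed in edgeR, 2 in DESeq2 and 2 in limma-voom after adjustment. Over all genes, 327 interactions passed in DESeq2 and 91 in limma-voom. Il1rl2, the receptor of IL-36 cytokines, had 41, 40 and 33 counts in late mutants and 0 counts in each late wild type, at least 33-fold higher against a floor of 3 counts over the wild-type group (adjusted p = 0.015). Early, it held 12 counts over the mutants and 37 over the wild types (log2 -2.02 ± 1.18, edgeR adjusted p = 0.6). The late mutants, the group where it was highest, brought it past the filter on low counts. The calls of Nfkb2 and Myd88 were lost in 10 and 5 alternatives, and that of Il1rl2 without late mutant replicate 1 (adjusted p = 0.053).

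**Figure D4:**
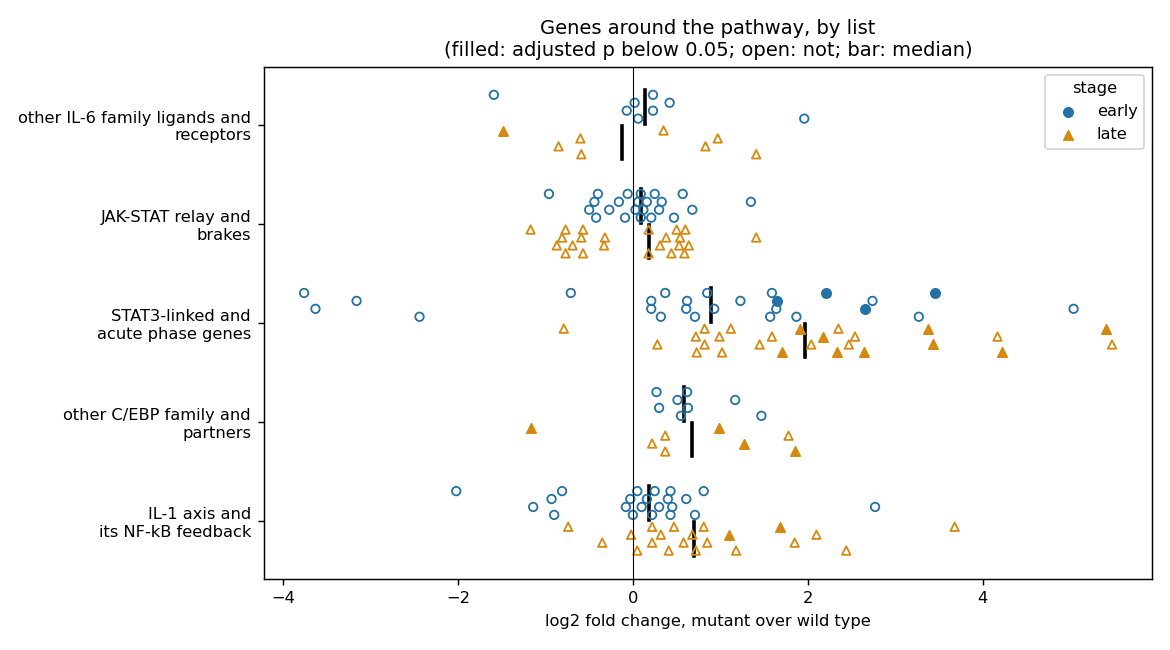
Log2 fold change of mutant over wild type for each tested gene of 5 lists around the members, early as circles in the upper row and late as triangles in the lower row of each list; filled symbols passed an adjusted p of 0.05 and the vertical bar is the median. Il1rl2 is not drawn late, as it had no reads in late wild types. The medians of the STAT3-linked and acute phase list are 0.89 and 1.97, and those of the JAK-STAT list are 0.09 and 0.18.

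Genes whose profile over the 12 libraries was most like that of a member were found by the root-mean-square (RMS) difference of mean-centred log2(CPM + 2) among 9083 genes with a mean of at least 5 CPM. For Cebpb these were Hmga1, a chromatin protein (RMS 0.2), Cpz, a carboxypeptidase (0.2), and Col23a1, a transmembrane collagen (0.22). Hmga1 was at 12.4 ± 3.97 CPM in early mutants and 2.59 ± 0.817 CPM in early wild types, and at 11.8 ± 1.61 CPM in late mutants and 3.21 ± 1.12 CPM in late wild types. For Cebpd they were Ctla2a, a cathepsin inhibitor (0.28), and the cyclins Ccnd2 (0.29) and Ccnd1 (0.32). For Socs3 they were Nlgn3, of a neuroligin adhesion protein (0.19), the phosphatase gene Dusp10 (0.2) and the kinase gene Mapk6 (0.2), and for Osmr they were Car12, a carbonic anhydrase (0.17), Bin1, a membrane-shaping protein (0.2), and Cln8, of the endoplasmic reticulum membrane (0.2). Car12 was at 4.22 ± 0.418 CPM in early mutants and 3.54 ± 1.29 CPM in early wild types, and at 9.89 ± 1.64 CPM in late mutants and 2.83 ± 1.01 CPM in late wild types, so like Osmr it was highest in late mutants. The pseudocount of 2 flattens genes of low level such as Cebpb, Socs3 and Osmr, and draws their nearest neighbours towards genes of small change.

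Markers of other cells moved with genotype in the same libraries. All 12 macrophage and myeloid markers had reads, and their sum was 254 to 581 CPM in early mutants against 37.5 to 65.4 CPM in early wild types, and 403 to 489 CPM in late mutants against 42.2 to 64.6 CPM in late wild types. Of these markers 7 passed as higher early and 11 late. Lyz2 made up much of the sum, at 272 ± 90.1 CPM in early mutants and 26.1 ± 15.5 CPM in early wild types. Others pointed the other way early without passing, with Ptprc at 0.584 ± 0.137 CPM in early mutants and 1.72 ± 1.7 CPM in early wild types (adjusted p = 0.61) and Itgam at 0.609 ± 0.0674 CPM in early mutants and 1.39 ± 0.89 CPM in early wild types (adjusted p = 0.63). Early mutant replicate 3, the lowest early mutant for the myeloid sum at 254 CPM, was also the lowest for Cebpd, while replicate 2, the highest for Cebpd, was at 486 CPM. Early mutant replicate 1 had the highest myeloid sum, 581 CPM, and the highest Socs3 and Cebpb of its group, at 4.56 and 7.18 CPM. Late mutant replicate 3 likewise had the highest sum, 489 CPM, and the highest Socs3 and Cebpb, at 4.02 and 4.63 CPM. Late Cebpd was highest in mutant replicate 1, at 54.4 CPM, where the sum was lowest, at 403 CPM. Neutrophil markers summed to 0.792 to 3.34 CPM in early mutants and 0.593 to 3.52 CPM in early wild types, and to 3.3 to 4.76 CPM in late mutants and 0 to 3.85 CPM in late wild types, and Ly6g was at 0 in each of these groups but early wild types. The 5 T cell markers summed to at most 0.447 CPM in mutants and 1.89 CPM in wild types. The part of the myeloid cells in the levels of Cebpb, Cebpd, Socs3 and the other members was not tested.

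The 6 immediate early genes, which respond within minutes to stimuli that include handling of tissue, summed to 138 to 208 CPM in early mutants against 34.6 to 55.8 CPM in early wild types, and to 132 to 185 CPM in late mutants against 37.3 to 39.6 CPM in late wild types. Of these genes 4 rose early and 5 late, while Fosb was at log2 -2.2 early and -0.1 late without passing (edgeR adjusted p = 0.66 and 0.98). Socs3 and both C/EBP genes also lay above wild types in the mutants of each stage. Early mutant replicate 1 had the highest sum, 208 CPM, and the highest Socs3 and Cebpb of its group. Cebpd was highest in early mutant replicate 2, where the sum was 144 CPM. Late mutant replicate 1 had the highest sum of its group, 185 CPM, with the highest Cebpd, 54.4 CPM, and the lowest Socs3, 2.61 CPM. Socs3 and Cebpb were highest in late mutant replicate 3, at 4.02 and 4.63 CPM, where the sum was 162 CPM. Among the 10 corneal endothelial markers 0 passed early and 1 fell late, Atp1b1 (log2 -0.97 ± 0.26, edgeR adjusted p = 0.035). Their late sums, given above, lay lower in every mutant library than in any wild-type one. Of 5 keratocyte markers 2 rose early, and 2 rose and 1 fell late. Of 4 trabecular meshwork markers 2 rose early and 3 late, and of 5 photoreceptor markers 2 rose early and none passed late. The 5 melanocyte markers summed to 90 to 226 CPM in early mutants and 28.9 to 41.8 CPM in early wild types, with none past the threshold at either stage. The 5 lens markers summed to 215 to 300 CPM in late mutants and 83.5 to 139 CPM in late wild types, with 1 higher, Cryaa, and to 93.3 to 181 CPM in early mutants and 117 to 522 CPM in early wild types, with none past the threshold. The part of these in the members' levels was not tested.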

How the data were processed

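RNA of mouse corneal endothelium was sequenced in 12 libraries, 3 in each of 4 groups. Polyadenylated RNA was made into libraries with a kit that keeps the strand, per the labels' protocols. Per the submitters' processing notes the tools were DESeq2, HTSeq, HISAT2 and fastp, without versions, on the build GRCm39. No source used here gives the annotation, the strand setting or any adjustment between batches. The authors deposited a table of raw read counts by gene, and FPKM values. They also deposited tables of their early and late comparisons, with the fold change as a ratio, the log2 fold change, the p-value and the q-value, per the file headers.

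Counts were tested with edgeR 4.0.16 in R 4.3.3 (TMM, filterByExpr on the groups with a minimum count of 10, robust quasi-likelihood F test, 8 residual degrees of freedom). After the filter 17965 genes were tested and 14796 were not. The biological coefficient of variation common to all genes was 0.464. Standard errors come from the F statistic. Contrasts were the genotype effect early, late and averaged, its change between stages, and late against early within genotype. Levels are CPM as mean ± SD, and the depth behind them is given as the CPM of 3 counts, which covers counting error only. FPKM served comparisons between genes.

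Named were all members, a fixed panel of 13 related genes (1 of which is not reported here), up to 4 genes of each pathway list with the smallest p among those past the threshold, and the 3 genes most like each of 4 members. Osm, Il1b and the libraries singled out by replicate were described after their values were seen. The members and lists were chosen with earlier results of these data known. Alternatives were DESeq2 size factors, no filter, a filter of 5 CPM in 3 libraries, DESeq2 1.42.0, limma-voom 3.58.1 with sample weights, a replicate block, the compared libraries alone, each library left out, and early wild-type replicate 2 with late wild-type replicate 1 left out. Those for the pathway lists were added after seeing the data. Replicates differed by 48.1 to 237 times the variance that sampling gives, so no library was a copy of another. The labels call the replicates biological and do not say how many mice each holds, and p-values measure the spread between these libraries. Exon overlaps and transcript starts were read from the GENCODE annotation of GRCm38.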

Additional observations from a re-analysis of the deposited data

How the results depend on the processing

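Deviations from the group means of same-numbered mutant and wild-type libraries correlated at -0.19 to 0.11, and not every library correlated best with its own number, so libraries were taken as unpaired. With the replicate number as a block the members called were 2 early, 4 late and 5 averaged, as without it, and the genes called in all were 88 early and 711 late, against 106 and 983. Early, 2 members were called higher, against 1 with the stricter filter and 1 to 3 with 1 library left out. Late, 4 were called, against 2 with the stricter filter, 7 without both doubted wild-type libraries (early replicate 2, late replicate 1) and 2 to 6 with 1 library left out. Averaged, 5 were called, against 2 with the stricter filter, which removes Osmr, Socs3 and Cebpb, 7 without both doubted libraries and 5 to 6 with 1 library left out. Early calls over all genes were 106, against 91 with the stricter filter and 51 to 179 with 1 library left out. Late, they were 983, against 954 with the stricter filter, 4371 without both doubted libraries and 229 to 3909 with 1 left out. Averaged, they were 1230, against 1056, 3285 and 566 to 3004 in the same order. No member was called lower for the early, late or averaged genotype effect, and no member's interaction was called, under any of these alternatives. The early log2 fold change of Lif (-0.06) was 0.07 without the filter, 1.56 in limma-voom, 0.63 with the block, 4.05 without both doubted libraries and -0.82 to 4.04 with 1 library left out, and its interaction (3.86) was -0.17 to 4.63. Il1r1 early (-0.4) ran from -0.65 to 0.13 with 1 library left out. Late (0.06) it was -0.2 without both doubted libraries, -0.05 in the authors' deposited table and -0.38 to 1.31 with 1 library left out, and averaged (-0.17) it was 0.04 with the block and -0.37 to 0.46 with 1 library left out. The cause of these shifts was not tested. Of 968 gene values under an alternative 842 kept direction and side of the threshold, 31 newly passed, 74 were lost and 21 turned sign. Depth limits Il6, Osm and Cebpa, which are near the level of 3 counts in several libraries. It also limits the late folds of Lif, Cebpb and Il1b through their wild types. These held 4, 2 and 2 counts of Lif, 21, 2 and 4 of Cebpb, and 5, 1 and 0 of Il1b.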
